A study of Mus musculus with 2 samples.

Results

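The genes described are 10 heat shock chaperones out of 31053 genes in the count matrix. They were chosen by name. The 6 members usually described as stress-inducible are Hspa1a, Hspa1b, Dnajb1, Hsph1, Hspb1 and Hsp90aa1, and the 4 constitutive members are Hspa8, Hsp90ab1, Hspa5 and Hspd1. All 10 had UMIs in both libraries, and all 10 passed the low-count filter in each test. UMIs (unique molecular identifiers) count captured RNA molecules. The samples are 2 labelled replicates of 1 group: corneal epithelium of mice with the genotype CycB1-GFP, a Cyclin B1 reporter line in which fluorescence marks dividing cells. Every cell was GFP-positive and alive at sorting, after Dispase digestion of the corneas overnight at 4 °C and trypsin for 20 min at 37 °C, and was captured with 10x Genomics 3′ v3 chemistry. No untreated or undigested control is among the samples used here. The labels used here do not give the age of the mice, how many corneas were pooled, or whether the replicates came from separate animals. The p-values below therefore refer only to differences between cell classes in these libraries. The test also draws each gene's variance between the libraries toward a trend over all genes. A small p-value thus does not rest on that gene's own variation alone. Barcode endings separate the libraries, here numbered 1 and 2, and no label ties them to a replicate number.

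Heat shock proteins bind unfolded or partly folded proteins and help them to fold, to be held or to be degraded. In unstressed cells heat shock factor 1 is held inactive by chaperones. Heat, oxidants and other stresses release it, and it then binds heat shock elements, which are inverted repeats of the unit GAA, upstream of its targets. The cytosolic HSP70 proteins have stress-inducible members encoded by Hspa1a and Hspa1b and a constitutive member encoded by Hspa8; Dnajb1 (HSP40) delivers clients and stimulates their ATPase, and Hsph1 (HSP110) exchanges their nucleotide. HSP90 has an inducible form (Hsp90aa1) and a constitutive one (Hsp90ab1), Hspb1 is a small heat shock protein that holds unfolded clients, Hspa5 (BiP) is the HSP70 of the endoplasmic reticulum, and Hspd1 (HSP60) folds proteins in mitochondria. Fos is an immediate early gene, a class that responds within minutes to many stimuli, tissue dissociation among them.

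Hspa1a, Hspa1b and Hspb1 differ most in what follows, between libraries or between cell classes, so their promoter windows are given here. RefSeq promoter entries on GRCm38.p6 matched 7 of the 10 members, and each window searched held the 250 bases before an annotated start. The motif was a pair of inverted GAA units, GAANNTTC or TTCNNGAA, which together cover both strands, with overlaps allowed. It occurred in 12.8% of 32851 such windows of all genes. Capitals mark its matches in these windows, written 5′ to 3′ on the gene's strand: Hspa1a at chr17:34972157-34972406 (minus strand), Hspa1b at chr17:34959239-34959488 (minus strand) and Hspb1 at chr5:135887669-135887918 (plus strand).
Hspa1a: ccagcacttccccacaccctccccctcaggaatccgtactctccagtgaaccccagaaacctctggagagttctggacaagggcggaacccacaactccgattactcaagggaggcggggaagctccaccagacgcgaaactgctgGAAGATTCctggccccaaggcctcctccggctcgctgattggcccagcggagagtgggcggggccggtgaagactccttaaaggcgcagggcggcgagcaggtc
Hspa1b: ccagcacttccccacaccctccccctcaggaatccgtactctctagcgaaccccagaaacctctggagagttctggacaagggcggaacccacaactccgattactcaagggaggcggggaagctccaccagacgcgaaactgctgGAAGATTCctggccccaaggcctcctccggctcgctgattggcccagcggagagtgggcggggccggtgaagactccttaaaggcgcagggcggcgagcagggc
Hspb1: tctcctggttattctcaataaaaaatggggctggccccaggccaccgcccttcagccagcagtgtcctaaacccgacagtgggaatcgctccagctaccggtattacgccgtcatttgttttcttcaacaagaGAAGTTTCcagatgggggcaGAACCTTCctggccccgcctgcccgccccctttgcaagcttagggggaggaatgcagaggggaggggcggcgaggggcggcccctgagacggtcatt
The Hspa1a and Hspa1b windows were equal at 247 of 250 positions (98.8%), with the match at the same distance from the start in both. The Hspb1 window held 2 matches. One of the Hspd1 windows, at chr1:55088244-55088493, held 0. The run given next lies in the other Hspd1 window, at chr1:55087933-55088182. That run also lies within an exon of transcript Hspd1-202, at chr1:55087989-55088243. Hspd1 held the only longer array among the 7 members searched, 3 matches in an 18-base run, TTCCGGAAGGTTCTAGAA, at chr1:55088059-55088076 (minus strand). Both Hspd1 windows also overlap exon sequence of the gene Hspe1, by 51 bases in the window with the run. The form with 3 units, GAANNTTCNNGAA or TTCNNGAANNTTC, occurred in 0.466% of all windows. The match in Hsph1 read TTCTCGAA. A match describes these letters only and is not evidence of binding. Of the 7 members with an entry, the 5 with a match were these 4 inducible genes and Hspd1, which is counted with the constitutive ones. The inducible Dnajb1 had no match in either of its windows, and the constitutive Hspa5 had none. Of the Dnajb1 window at chr8:83608298-83608547, 245 of 250 bases lie in an exon of transcript Dnajb1-201, so it is mostly transcribed sequence. Of the Hspa5 window, 120 bases lie in an exon of Hspa5-201. Hsp90aa1, Hspa8 and Hsp90ab1 had no entry and were not searched, so the classes cannot be compared here.

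The genes lie apart in the genome except for one pair. On GRCm38, Hspa1a spans chr17:34969190-34972156 and Hspa1b chr17:34956436-34959238, both on the minus strand. The transcripts are near-copies, and 58.8% of the 50-base stretches of Hspa1a also occur in Hspa1b. In the last 500 bases, where 3′ libraries are read, 0 of 451 such stretches were shared. Their counts are still less certain than those of single-copy genes wherever reads fell further upstream.

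After cells with at least 500 genes and under 20% mitochondrial UMIs were kept, 3187 cells of library 1 and 3001 of library 2 remained, with 18773893 and 17796678 UMIs, and the median cell had 5571 and 5886 UMIs. The corneal keratin Krt12 stood at 11115 and 12597 CPM (a gene's UMIs scaled to a common total of 1000000 UMIs in the summed cells), and the cycling marker Mki67 was present in both. Of 6 keratocyte markers, 5 and 4 were at 0, the endothelial markers Cdh5 and Kdr were at 0 in both, and 8 immune markers summed to 22.1 and 71.6 CPM. The mitochondrial share had a median of 2.73% and 3.58%, and 5 barcode sequences occurred in both libraries. Levels carry Poisson 95% intervals and shares exact binomial ones, which cover counting error only. Over all cells of a library, the upper bound lay at most 4.23% above the level, and 9.49% for Hsph1, the gene with the fewest UMIs.

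Of the 10 members, Hspa1a and Hspa1b differed most between the libraries. Hspa1a had 553.7 CPM in library 1 and 125.7 in library 2, a ratio of 4.41 (95% interval 4.21 to 4.61). Hspa1b had 345.5 and 132.6, a ratio of 2.61 (2.48 to 2.73). Both inducible HSP70 genes thus took a larger share of all UMIs in library 1. For Hsph1 the values were 45.6 and 26.2, a ratio of 1.74 (1.55 to 1.95). The HSP70 co-chaperone gene Dnajb1 differed less, at 189.0 and 145.0 (ratio 1.30, 1.24 to 1.37). The inducible Hsp90aa1 was at 981.3 and 770.1 (ratio 1.27), and Hspb1 was at 1376 and 1219 (ratio 1.13). Being inducible therefore did not go with 1 size of difference: among the 6, the ratio ran from 1.13 to 4.41.

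The constitutive members lay closer together. Hspd1 was at 338.5 and 235.0 CPM (ratio 1.44), Hspa5 at 500.4 and 379.6 (1.32), Hsp90ab1 at 3241 and 2592 (1.25) and Hspa8 at 1332 and 1120.4 (1.19). All 10 members were higher in library 1, and 3 of 10 (Hspa1a, Hspa1b and Hsph1) were past 1.5-fold. Among 6098 genes at 20 CPM or more, 6.43% were past 1.5-fold, 2.12% higher in library 1 and 4.31% lower. The median log2 ratio was 0.59 for the inducible members, 0.36 for the constitutive ones and −0.06 for all these genes. With 1 sample per library there is no test of this difference.

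Fos moved with it: 1244 CPM in library 1 and 426.6 in library 2 (ratio 2.92, 2.84 to 2.99), and 11 of 13 immediate early genes were past 1.5-fold higher, 1 lower, with a median log2 ratio of 1.02. Other chaperone lists did not share the size of the Hspa1a difference. Of 11 inducible co-chaperone and small heat shock protein genes at that level, 1 was past 1.5-fold higher and 1 lower (median log2 ratio 0.05). For 12 other cytosolic partners the median was 0.07 and for 8 mitochondrial chaperones and related genes 0.02, with none past 1.5-fold in either list. Of 15 chaperones and related genes of the endoplasmic reticulum (ER), 1 was lower (median 0.09). The 7 measured subunits of the cytosolic chaperonin had a median of 0.21, and Hsf1, at −0.17, was the 1 heat shock factor at that level. The part of immediate early genes, mitochondrial share or immune markers in the Hspa1a difference was not tested.

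The inducible HSP70 genes weighed more against Hspa8 in library 1. As a share of UMIs, which is not a ratio per transcript length, Hspa1a and Hspa1b together made up 40.3% (39.8% to 40.8%) of the HSP70 UMIs (Hspa1a, Hspa1b and Hspa8) in library 1 and 18.7% (18.2% to 19.2%) in library 2. The HSP90 pair showed no such gap: Hsp90aa1 made up 23.2% (22.9% to 23.5%) and 22.9% (22.6% to 23.2%) of HSP90 UMIs, intervals that overlap. Over all 10 members, the inducible 6 held 39.2% and 35.9% of UMIs.

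Cells were then divided by the Krt12 share, Krt12/(Krt12 + Krt15) UMIs, over cells with at least 5 such UMIs. Krt12 is the keratin of corneal epithelial cells and Krt15 a keratin enriched in the limbus, the rim of the cornea that holds its stem cells. Library 1 had 663 cells with a share under 0.4, 161 with 0.4 to 0.8 and 2304 above 0.8, and library 2 had 959, 164 and 1821. The remaining 59 and 57 cells had fewer such UMIs and entered no band. Between the outer bands Hspb1, Hspa1b and Dnajb1 rose with the Krt12 share, and Hspd1 and Hsp90ab1 fell, by edgeR's quasi-likelihood test on UMI sums per library and band with the library as a block (adjusted p under 0.05 over all genes). These are 5 of 10 members, 3 higher and 2 lower, where 32.5% of 11140 genes passed, 15.6% higher and 16.9% lower. The median log2 fold change was 0.36 for the inducible members, −0.16 for the constitutive ones and 0.01 for all genes.

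Hspb1 showed the clearest step. In library 1 it stood at 579.2 CPM (95% interval 554.6 to 604.5) under 0.4, 892.1 (839.1 to 947.6) from 0.4 to 0.8 and 1627 (1606 to 1649) above 0.8. In library 2 the levels were 544.8 (524.6 to 565.6), 999.9 (942.5 to 1060.02) and 1541 (1518 to 1564). The bands did not overlap, and the libraries were close in every band. The fitted log2 fold change was 1.52 (SE 0.07, edgeR adjusted p = 6.23e-16) between the outer bands, with 1.49 in library 1 and 1.5 in library 2. From the lowest to the middle band it was 0.75 (SE 0.08, adjusted p = 4.1e-08), and Hspb1 was the only member of the 10 called at that step, where 5.57% of genes were called, 2.95% higher and 2.62% lower.

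Hspa1a and Hspa1b differed in how far the libraries matched. Hspa1a was at 366.6, 351.3 and 617.9 CPM in the 3 bands of library 1, from the lowest share to the highest, and at 120.4, 115.1 and 129.6 in library 2. Its level above 0.8 stood apart in library 1 alone, and every band of library 1 exceeded every band of library 2. The log2 fold change between the outer bands was 0.48 (SE 0.19, edgeR adjusted p = 0.147), with 0.75 in library 1 and 0.11 in library 2, so it did not pass the test. Hspa1b was at 267.4, 275.9 and 369.7 in library 1 and at 113.6, 121.3 and 142.5 in library 2. It was highest above 0.8 in both libraries, and rose by 0.43 on the log2 scale (SE 0.09, edgeR adjusted p = 0.00025). The difference in band effect between the libraries was not tested for either gene.

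Dnajb1, which encodes the HSP40 partner of these proteins, was at 164.3, 125.3 and 200.5 CPM in library 1 and 129.1, 124.9 and 154.2 in library 2. It was highest above 0.8 in both, and its fitted rise was 0.30 (SE 0.09, edgeR adjusted p = 0.0134). Hsph1 had few UMIs, at 42.1, 57.6 and 44.7 in library 1 and 34.2, 22.1 and 23.3 in library 2. No order of its bands was common to both libraries, and the log2 fold change of −0.20 (SE 0.17) had an adjusted p of 0.399. Hsp90aa1 was nearly level across the bands, at 1016, 1022 and 965.3 in library 1 and 765.7, 781.2 and 771.1 in library 2. Its log2 fold change was −0.01 (SE 0.07, adjusted p = 0.963).

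**Figure D1:**
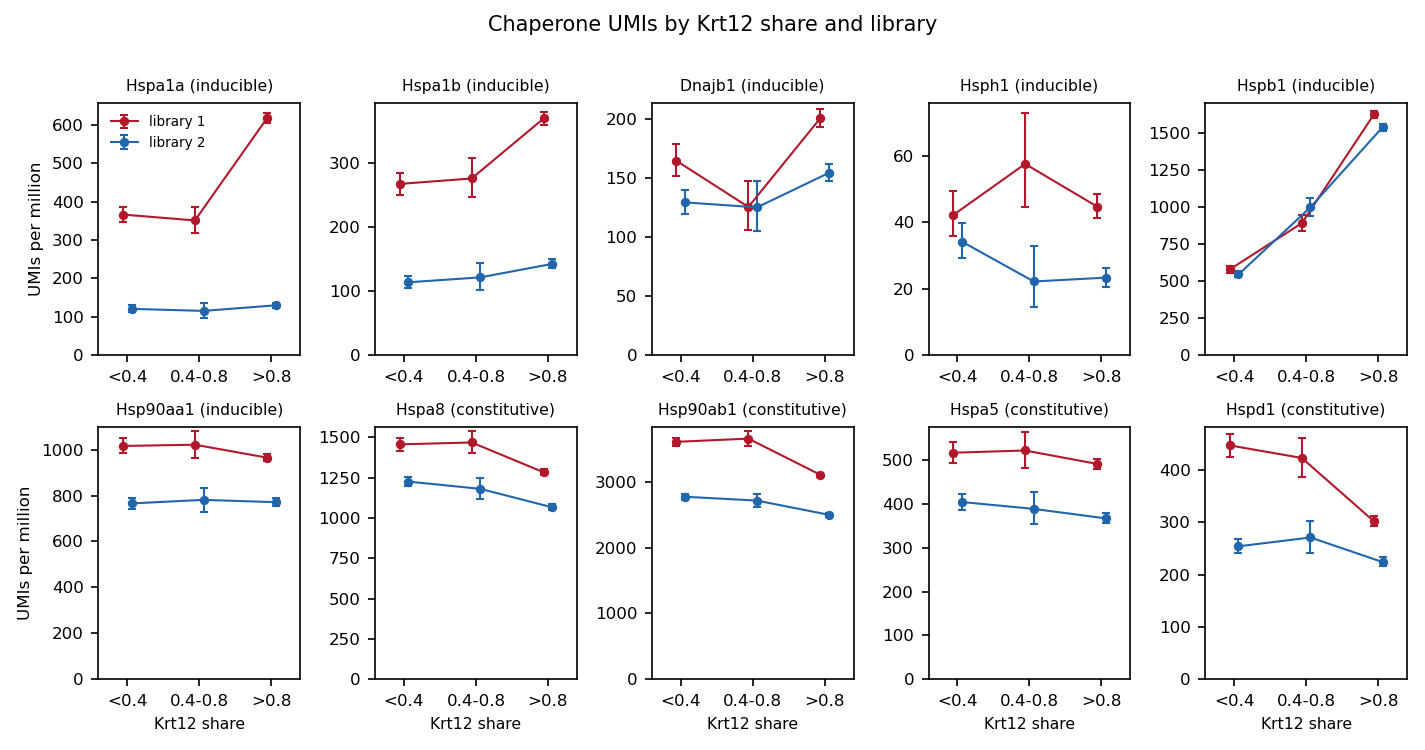
CPM (y axis, from 0) of the 10 chaperone genes by Krt12 share band (x axis), red for library 1 and blue for library 2, with Poisson 95% intervals as bars. Hspb1 climbs from 579.2 to 1627 and from 544.8 to 1541, whereas Hspa1a separates the libraries in every band.

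The constitutive members ran the other way or stayed level. Hspd1 was at 447.3, 423.2 and 302.1 CPM in library 1 and 254.1, 271.0 and 224.1 in library 2. Its log2 fold change was −0.35 (SE 0.09, edgeR adjusted p = 0.00236), but −0.56 in library 1 and −0.18 in library 2, so each library alone moved the value by over 1.5 times. Hsp90ab1 was at 3611, 3660 and 3109 in library 1 and 2775, 2716 and 2500.2 in library 2. It was lowest above 0.8 in both, and its fall of −0.16 (SE 0.06) only just passed, with an edgeR adjusted p of 0.0412. Hspa8 had a like pattern, 1457, 1469 and 1283 against 1226, 1181 and 1066, and a log2 fold change of −0.17 (SE 0.07, adjusted p = 0.0531) that did not pass. Hspa5 was at 517.1, 522.2 and 491.6 in library 1 and 404.5, 388.8 and 367.1 in library 2, a log2 fold change of −0.08 (adjusted p = 0.472).

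The balance of the classes followed these single values. The inducible share of member UMIs was 28.8%, 31.0% and 42.5% in the bands of library 1 and 26.8%, 32.2% and 39.9% in library 2, so it was highest above 0.8 in both. Without Hsp90aa1 it was 19.1%, 21.9% and 35.5%, then 16.8%, 23.3% and 32.4%. Most of the rise in inducible UMIs came from Hspb1. The 6 inducible members summed to 2436 and 3825 CPM in the outer bands of library 1, where Hspb1 was at 579.2 and 1627. In library 2 they summed to 1708 and 2761 CPM, and Hspb1 rose as given above. A share without Hspb1 was not computed. The share of Hspa1a and Hspa1b among HSP70 UMIs went from 30.3% (29.3% to 31.4%) to 43.5% (42.9% to 44.0%) between the outer bands of library 1, and from 16.0% (15.2% to 16.9%) to 20.3% (19.7% to 21.0%) in library 2.

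Fos moved with the bands, at 479.1, 801.5 and 1485 CPM in library 1 and 162.1, 363.1 and 549.5 in library 2. Of 13 immediate early genes, 7 rose and none fell between the outer bands (median 0.82). Over all genes 15.6% rose and 16.9% fell. The comparison was also repeated in cells without a Fos UMI after each was thinned to 2000 UMIs, an alternative chosen after seeing the data. These sums held fewer cells and UMIs. Fewer of all genes were called, as in thinned cells without this restriction (counts in the last section). The part of Fos in the band differences was not tested. In cells without a Fos UMI Hspb1 kept a log2 fold change of 1.44 and Hspd1 of −0.48, and both passed. Hspa1b was at 0.29 (edgeR adjusted p = 0.194, range over its alternatives 1.43e-05 to 0.791) and no longer passed. Dnajb1 turned to −0.18 (adjusted p = 0.554, the highest of its alternatives, the lowest being 0.00614). Hspa8, at −0.32, passed (adjusted p = 0.0364, range over alternatives 0.0364 to 0.634). Over 11 alternatives, Hspb1 was called in 11, Hspa1b and Hspd1 in 9 each, Dnajb1 in 7, Hsp90ab1 in 4, Hspa8 in 3 and Hspa1a in 2.

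Other genes of the pathway went in both directions. Of 13 inducible co-chaperones and small heat shock proteins, none rose and 4 fell between the outer bands (median −0.15). Those 4 called lay near the share over all genes, 32.5%, with 15.6% higher and 16.9% lower. Hspb8, a small heat shock protein that works with Bag3, fell by 5.28 on the log2 scale, from 69.6 to 1.16 CPM in library 1 and from 73.1 to 2.51 in library 2. Hspa4l, an HSP110 gene like Hsph1, fell by 1.68, Fkbp4, an HSP90 co-chaperone, by 0.28, and Cryab also fell. The small heat shock genes Hspb1 and Hspb8 thus had opposite directions in both libraries. Of 13 other cytosolic partners, Bag1 (0.44) and Dnaja2 (0.33) rose and none fell (median 0.01), and of the 2 heat shock factors Hsf2 fell while Hsf1 was at 0.09 (adjusted p = 0.715).

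Of 16 genes on the ER list, 8 fell and 1 rose (median −0.29), beside 16.9% of all genes lower and 15.6% higher. Herpud1, which serves ER-associated degradation, fell by 1.37 (98.9 to 33.9 CPM in library 1, 131.1 to 54.5 in library 2), the lectin chaperone Calr by 0.52, and Dnajb9, a BiP co-chaperone, rose by 0.55. The ER member Hspa5 did not pass the test. Of 8 genes on the mitochondrial list, Hspa9 (−0.34) and Trap1 (−0.33) fell (median −0.14), the same direction as Hspd1. None of the 7 measured chaperonin subunits was called (median −0.09). From the lowest to the middle band, Hspb8 (−1.45) and Hspa4l (−0.85) fell and Bag1 (0.32) rose. At this step 2.95% of all genes were called higher and 2.62% lower. Of the immediate early genes 5 rose (median 0.30). No heat shock factor, ER, mitochondrial or chaperonin gene was called, with medians of 0.01, −0.07, −0.07 and −0.11.

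Markers moved with the outer bands as follows, beside 15.6% of all genes called higher and 16.9% lower. Of 6 corneal genes 5 rose (Krt12, which set the bands, among them), of 6 limbal genes 1 rose and 3 fell (Krt15 among them), of 5 conjunctival genes tested 3 fell, and of 3 immune genes tested 3 fell. The melanocyte gene Pmel rose, the 3 cycling genes were not called, and no keratocyte or endothelial gene had enough UMIs. Conjunctival markers summed to 2302 and 1782 CPM in the lowest and highest band of library 1 and to 3169 and 833.0 in library 2, and immune markers to 5.82 and 0.867, then 75.3 and 3.03. Most of the conjunctival sum was Krt6a, at 1596 of 1912 CPM over all kept cells of library 1 and 905.3 of 1538 in library 2. Krt6a (log2 fold change −0.22) and Krt13 (−2.55) were not called between the outer bands. Krt4 (−5.91), Krt19 (−4.41) and Krt8 (−3.66) fell far more than the sums show. Muc5ac was at 0 in both libraries. Leaving out cells with 2 or more immune UMIs gave 5 member calls again, and the share over all genes in that setting is not given here. The part of conjunctival cells in the band differences was not tested.

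For the relation to Fos, each cell was thinned to 2000 UMIs so that depth gave every cell the same chance of a Fos UMI, which left 2862 and 2664 cells and left out 325 and 337. The lower class held cells with no Fos UMI (830 and 1554 cells), and the upper class those above the 75th percentile, over 4 Fos UMIs in library 1 (594 cells) and over 1 in library 2 (522 cells). Classes were set within each library, so the upper class stood at a higher Fos level in library 1. None of the 10 members passed edgeR's test between them, where 4.45% of 9007 genes did, 1.87% higher and 2.59% lower. Unadjusted p was under 0.05 for 4 members, and DESeq2 called 1 (its count over all genes is in the last section). The median log2 fold change was 0.73 for the inducible members, −0.08 for the constitutive ones and 0.01 for all genes, in a fit with 1 residual degree of freedom.

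In library 1 the levels of Hspa1a differed widely. It was at 298.2 CPM in the lower class and 936.9 in the upper class of library 1, but at 121.6 and 109.2 in library 2. The 95% intervals of the classes were far apart in library 1 and overlapped in library 2 (109.7 to 134.5 and 90.1 to 131.2), and the log2 fold change of 0.96 had an SE of 0.86 (edgeR adjusted p = 0.795). Hspa1b was at 257.8 and 531.1 in library 1 and at 120.0 and 131.2 in library 2, a log2 fold change of 0.70 (SE 0.31, adjusted p = 0.461). Dnajb1 was at 116.9 and 326.6 in library 1 and at 118.1 and 182.0 in library 2. It was higher in the upper class of both, with a log2 fold change of 1.10 (SE 0.27, edgeR adjusted p = 0.196), 1.47 and 0.62 by library. Hspb1 was at 927.7 and 1880 in library 1 and 1019 and 1351 in library 2, a log2 fold change of 0.76 (SE 0.21, adjusted p = 0.27).

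These members passed in part of the alternatives. Over 11 alternatives, Dnajb1 passed in 8 (adjusted p from 2.25e-14 to 0.414), Hspa1b in 5 (1.76e-05 to 1.0), Hspb1 in 4 (1.5e-12 to 0.813) and Hspa1a in 0 (0.144 to 1.0). Within cells of Krt12 share above 0.8 Dnajb1 had a log2 fold change of 1.15 (edgeR adjusted p = 4.51e-05) and Hspa1b of 0.62 (adjusted p = 0.0197), and Hspb1 of 0.28 (adjusted p = 0.813). In the pooled cells the upper Fos class had Krt12 at 15576 against 8184 CPM in library 1 and 14107 against 9682 in library 2. The other members were closer between classes: Hsp90aa1 was at 985.5 and 877.1 in library 1 and 780.2 and 757.7 in library 2, and Hsph1 at 36.1 and 36.2, then 25.4 and 28.7. Hsp90ab1 went from 3419 to 2657 and from 2663 to 2504, Hspd1 from 340.4 to 237.4 and from 239.4 to 227.0, Hspa8 from 1254 to 1189 and from 1138 to 1169, and Hspa5 from 435.5 to 536.2 and from 378.1 to 386.0. None of these 6 passed in any alternative.

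**Figure D2:**
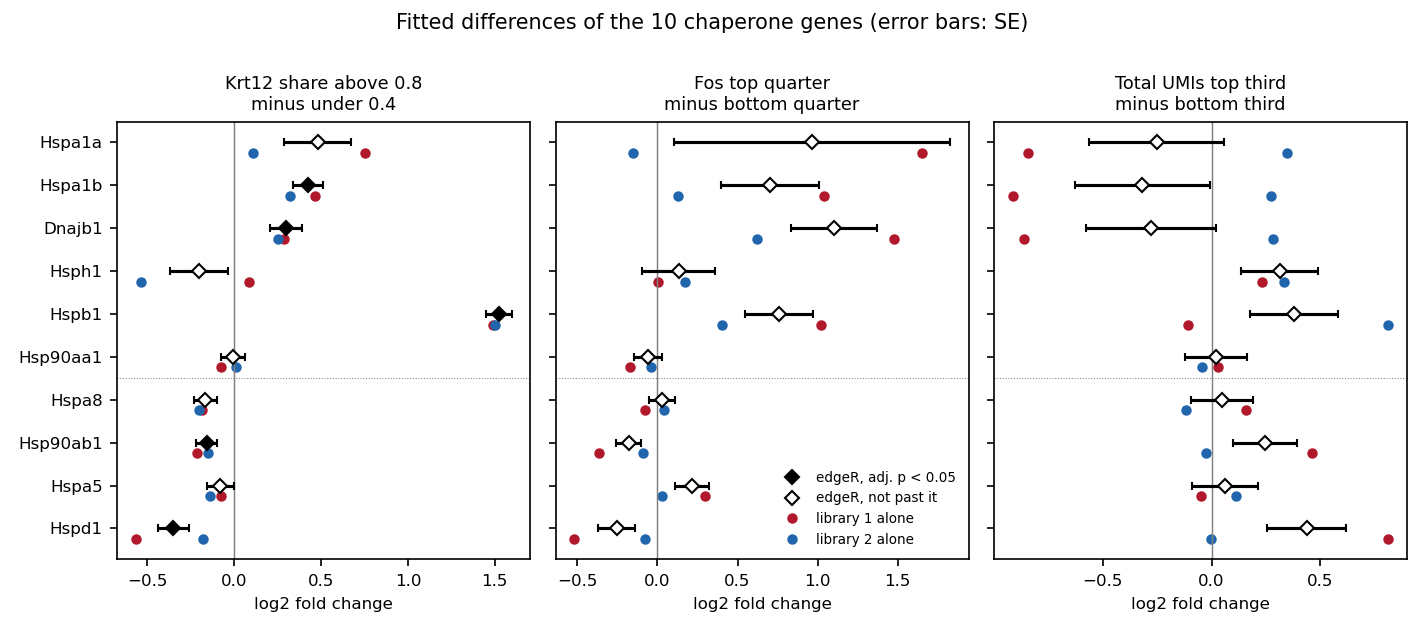
Log2 fold changes (x axis) of the 10 members in 3 comparisons, with edgeR estimates as diamonds (bars, SE; filled, adjusted p under 0.05) and each library alone as red or blue points. The Hspb1 points coincide in the band comparison (1.49 and 1.5), and the Hspa1a points lie on opposite sides of 0 in the Fos comparison, where the intervals of the library 2 classes overlapped, and in the total UMI comparison.

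Classes at fixed numbers of Fos UMIs put both libraries on 1 scale. For cells with 0, 1, 2 to 3 and 4 or more Fos UMIs, Hspa1a was at 298.2, 478.5, 565.5 and 878.2 CPM in library 1, and at 121.6, 130.1, 100.0 and 137.8 in library 2. It was higher at each step in library 1 and had no such order in library 2. Dnajb1 was at 116.9, 159.5, 190.1 and 295.3 in library 1 and at 118.1, 170.1, 186.1 and 169.3 in library 2, so the libraries overlapped up to 3 Fos UMIs. Hspb1 was at 927.7, 1188, 1407 and 1825 in library 1 and at 1019, 1252, 1387 and 1236 in library 2. At 4 or more Fos UMIs library 2 had 127 cells, against 833 in library 1. Within the band above 0.8, Hspa1a ran from 312.1 to 903.6 in library 1 and from 130.4 to 152.8 in library 2 between 0 and 4 or more Fos UMIs.

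**Figure D3:**
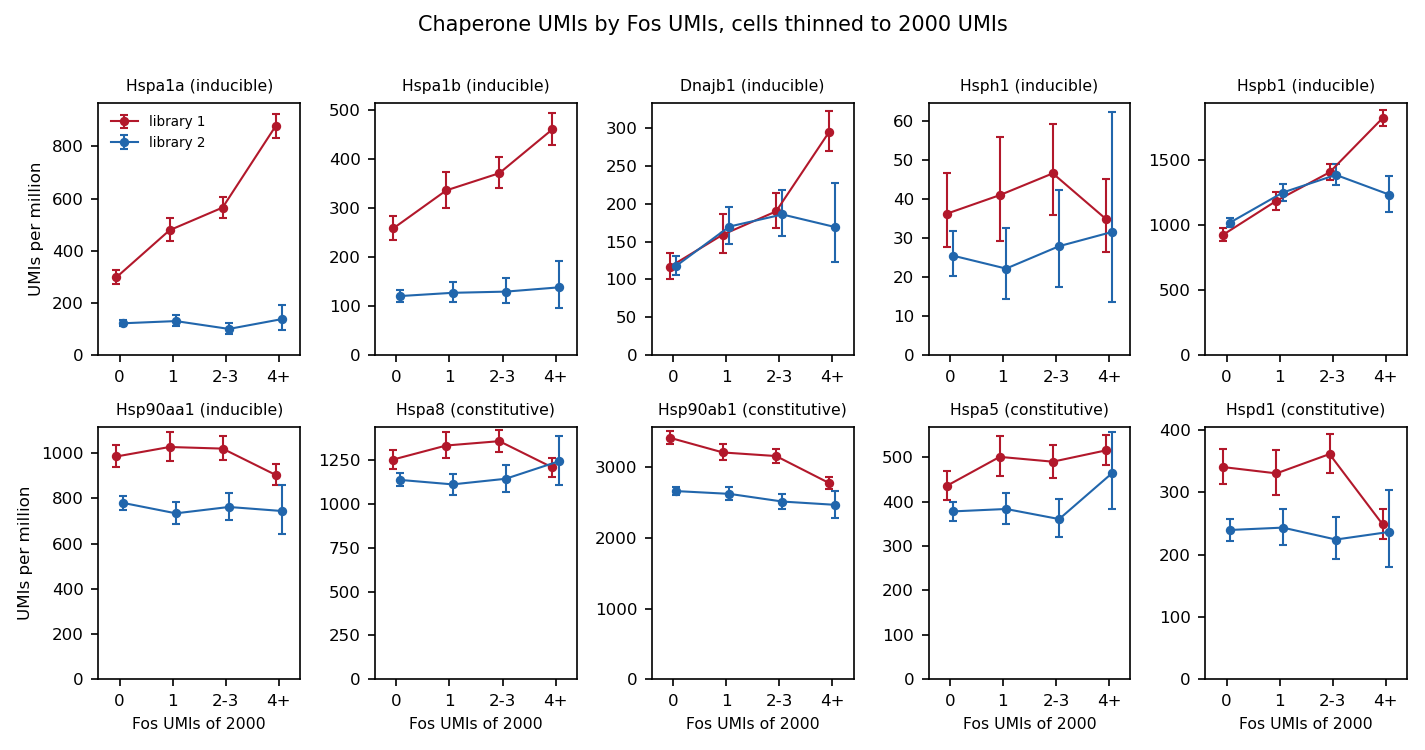
CPM (y axis, from 0) by the cell's Fos UMIs among 2000 (x axis: 0, 1, 2 to 3, 4 or more), for each member, red for library 1 and blue for library 2, with Poisson 95% intervals. Hspa1a goes from 298.2 to 878.2 in library 1 and stays between 100.0 and 137.8 in library 2, and the libraries overlap for Dnajb1 up to 3 Fos UMIs.

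Of the other chaperone lists, the inducible co-chaperones (3 of 13) and the ER list (4 of 16) held genes that passed with Fos, beside 4.45% of all genes. Among the former Dnajb4, an HSP40 gene related to Dnajb1, rose by 0.77 on the log2 scale, and Hspb8 (−1.71) and Hspa4l (−1.13) fell (median −0.14). Of the ER genes Dnajb9 rose (1.02) and Herpud1 (−0.68), Dnajc3 (−0.49) and Calr (−0.46) fell (median −0.30). No cytosolic partner, gene of the mitochondrial list, chaperonin subunit or heat shock factor was called, with medians of 0.05, 0.03, −0.15 and 0.19. Of 12 immediate early genes tested besides Fos, 7 rose and none fell, among them Atf3 (2.20), Dusp1 (1.47), Egr1 (1.43) and Btg2 (1.12). Of the markers, 5 of 6 limbal and 4 of 5 conjunctival genes fell, 2 of 6 corneal genes rose and 1 fell, 1 of 3 cycling genes fell and no immune gene of 3 was called.

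Total UMIs gave the members no common direction. Cells were divided within each library into 3 equal groups by total UMIs, with medians of 3069 and 8427 UMIs in the lowest and highest group of library 1. None of the 10 members passed edgeR's test between the outer groups, where 3.42% of 11359 genes did, 0.845% higher and 2.58% lower. Unadjusted p was under 0.05 for 1 member, and DESeq2 called 0. The median log2 fold change was −0.12 for the inducible members and 0.15 for the constitutive ones, against 0.00 for all genes.

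The libraries had opposite signs for the inducible HSP70 genes. Hspa1a was at 820.1 CPM in the cells with fewest UMIs and 456.3 in those with most in library 1, and at 108.3 and 137.7 in library 2. Hspa1b was at 566.2 and 300.2 in library 1 and 126.4 and 152.8 in library 2, and Dnajb1 at 297.8 and 163.7, then 125.4 and 152.7. All 3 were lower in the cells with most UMIs in library 1 and higher in those of library 2, and this difference between libraries was not tested. Fos had the same signs, 1472 and 1111 in library 1 and 297.4 and 485.7 in library 2. Hspd1 was at 226.4 and 398.1 in library 1 and 228.7 and 228.4 in library 2, a log2 fold change of 0.44 (edgeR adjusted p = 0.222, by library 0.81 and 0.00). Hspb1 was at 1513 and 1404 in library 1 and 833.8 and 1462 in library 2, and Hsp90ab1 at 2585 and 3556, then 2586 and 2540.3.

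The cells with fewest UMIs also had a higher mitochondrial share, with medians of 4.25% against 2.36% in library 1 and 4.65% against 3.14% in library 2, and more immune marker UMIs, 127.8 against 0.923 CPM in library 1. Their part in the member levels was not tested. Of other chaperone genes, Hspb8 and Cryab fell and Dnaja2 and Grpel1 rose with total UMIs, beside 2.58% of all genes lower and 0.845% higher. The list medians were 0.09 for inducible co-chaperones, 0.22 for cytosolic partners, −0.01 for heat shock factors, 0.16 for ER, 0.25 for mitochondrial and 0.38 for chaperonin genes, and no immediate early gene of 13 was called (−0.10). Limbal genes Krt15 and Gpha2 and 5 of 6 immune genes fell, the conjunctival list gene Krt6a rose, and no corneal, melanocyte or cycling gene was called.

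**Figure D4:**
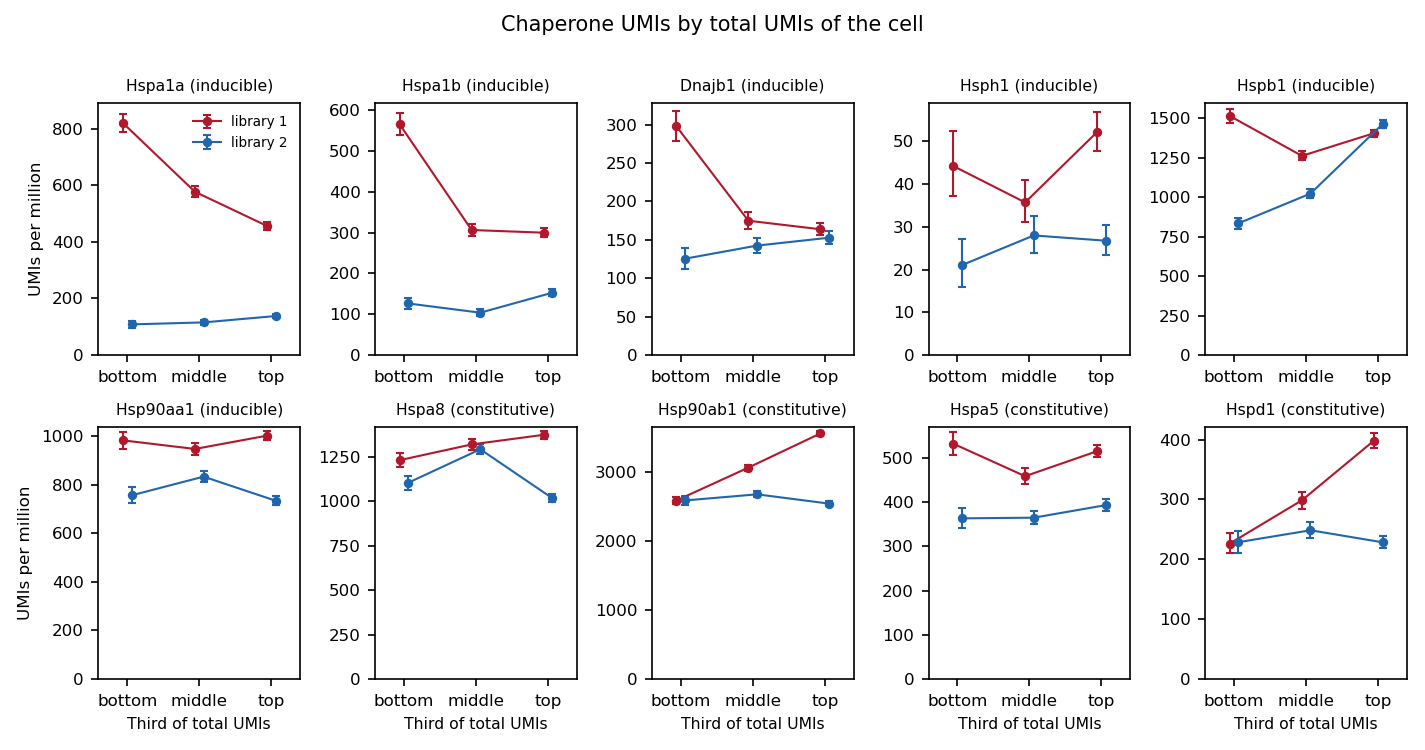
CPM (y axis, from 0) of each member by total UMIs of the cell (x axis: 3 equal groups within each library), red for library 1 and blue for library 2, with Poisson 95% intervals. Hspa1a goes from 820.1 to 456.3 across the groups of library 1 and lies between 108.3 and 137.7 in library 2.

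At the level of single cells thinned to 2000 UMIs, the members differed in how unevenly they were spread. The variance over the mean, which is 1 for random sampling from equal cells, was 2.03 for Hspa1a in library 1 and 1.11 in library 2. Hspb1 was uneven in both, at 2.41 and 2.27. Dnajb1 was at 1.48 and 1.05, Hspa1b at 1.51 and 1.17, and Hsph1 at 0.98 and 1.04, the last near random sampling at this depth. Hsp90aa1 (1.24 and 1.14), Hspa8 (1.48 and 1.42), Hsp90ab1 (1.54 and 1.26), Hspa5 (1.21 and 1.24) and Hspd1 (1.29 and 1.11) lay between. The ratio grows with the mean where cells differ, and the mean of Hspa1a was 1.13 UMIs per cell in library 1 and 0.242 in library 2.

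Across the 2862 cells of library 1, the 15 pairs of inducible members had a median Pearson r of 0.06 (−0.06 to 0.24), and across the 2664 cells of library 2 of 0.02 (−0.06 to 0.06). The 6 pairs of constitutive members had a median of 0.10 (0.01 to 0.19) and 0.06 (−0.02 to 0.13). With Fos, the inducible members had a median r of 0.22 (−0.04 to 0.33) in library 1 and 0.02 (−0.02 to 0.09) in library 2, with Hspa1a at 0.33 and −0.01 and Hsp90aa1 at −0.04 and −0.02. Cells of a library share its preparation, and such weak values in sparse counts are given as a description. Thinned cells were also summed by library, band and whether their Fos UMIs lay above the library's median or not. Over these 12 sums, each library centred on its mean, likeness to the mean of the inducible members was highest for 5 genes. These were Malat1 (r = 0.87), Prdx5 (0.84), Mprip (0.82), Id2 (0.81) and Ifi35 (0.80). Hsp90aa1 and Hsph1, themselves counted in that mean, had r = −0.70 and −0.10 with it. The sums held from 40 to 1057 cells, so genes at low levels, such as Ifi35 and Hsph1, had few UMIs in the smallest. Most like the constitutive members were Atp1b3 (0.97), Herpud1 (0.96), Bzw2 (0.94), Rpn2 (0.94) and Igfbp7 (0.94). The sums of a library share cells' source and depth, so these values too carry no p.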

How the data were processed

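The files held whole-number UMI counts per gene and barcode for 31053 genes and 6752 barcodes, as the authors deposited them, with both libraries in 1 matrix. The submitters' processing notes name Cell Ranger 3.1.0, Seurat 5.0.0 and GRCm38; how reads were aligned and cells called is not given in the sources used here. The members, the gene lists and the tests were chosen with earlier results of these data known. The 10 members are all named; of each other list, up to 4 called genes with the largest change at 20 CPM or more are named in the band and Fos comparisons, and single genes outside that rule (Hsf2, Hsf1, Cryab, marker genes and those of the total UMI comparison) were named after their values were seen.

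Cells with at least 500 genes and under 20% mitochondrial UMIs were kept. No doublet caller was run, so doublets may remain; an alternative left out the 3% of cells with most UMIs. Raw counts were added up within each library and class, and these sums were tested with edgeR 4.0.16 (R 4.3.3; TMM, filterByExpr, robust quasi-likelihood fit, library as the replicate block, Benjamini-Hochberg adjustment over all genes tested, threshold 0.05), with DESeq2 1.42.0 as an alternative. The block is the library of origin, which both sums share. Total UMIs were 18773893 and 17796678, which sets the counting error. Only the edgeR fits were tested on simulated data, with 200 genes changed by 1 on the log2 scale. They recovered 95.5% of these for the outer bands and 67% for the middle band. For Fos and for total UMIs they recovered 88.5% each. Unchanged genes called were 12 for the outer bands, 5 for the middle band, 10 for Fos and 11 for total UMIs. Every simulated gene had the same dispersion and the same change in both libraries, and only genes with higher counts were changed. Recovery therefore does not describe members whose change differed between the libraries, such as Hspa1a with Fos. One alternative, the restriction to cells without a Fos UMI, was chosen after seeing the data. Promoter windows came from RefSeq (GRCm38.p6).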

Additional observations from a re-analysis of the deposited data

How the results depend on the processing

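Of the member calls between the outer Krt12 share bands, those of Hspb1 held under each of the 11 alternatives tested. Dnajb1 changed sign to −0.18 in cells without a Fos UMI, where it did not pass (edgeR adjusted p = 0.554). The 5 members called became 2 with DESeq2, 1 with no replicate block, 3 with a Krt12 and Krt15 sum of at least 20, and 3 in cells without a Fos UMI. The 3625 genes called became 1777 with DESeq2, 1553 with no replicate block, 2261 in thinned cells and 1411 in cells without a Fos UMI. For the middle band the 621 genes became 309 with DESeq2, 53 with no replicate block, 1003 with band limits of 0.2 and 0.9, 325 in thinned cells and 183 in cells without a Fos UMI, and the 1 member became 0 with no replicate block (edgeR; 1 at unadjusted p under 0.05, and 1 by DESeq2). For Fos the 401 genes became 64 with DESeq2, 57 with no replicate block, 895 at 4000 UMIs, 64 in the band above 0.8 and 239 when matched on total UMIs; the 0 members (4 at unadjusted p under 0.05) became 1 with DESeq2, without cells with immune UMIs and at 4000 UMIs, 2 in the band above 0.8, and 3 with no filter on low counts, a mitochondrial limit of 10%, without the 3% of cells with most UMIs or with fixed limits. For total UMIs the 389 genes became 60 with DESeq2, 629 with no filter, 0 with no replicate block (edgeR; 918 at unadjusted p under 0.05), 643 without the 3% of cells with most UMIs, 591 without cells with immune UMIs and 3 in the band above 0.8. The cause of these shifts was not tested. The main Fos fit called 4.45% of all genes. For settings given with a member count but no gene count, the share over all genes is not given here. Those member counts cannot be set against such a share. With a single library left there is no test, and the values by library stand in the report. Between libraries, the count of 3 members past 1.5-fold became 4 with TMM scaling. The fits had 1 or 2 residual degrees of freedom from 2 libraries, and Hsph1 had the widest counting intervals of the members.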
